A study of Mus musculus with 108 samples.

Results

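Livers of mice that had been given Wy-14643 daily for 4 days were set against livers of time-matched vehicle mice. The comparison used the 6 arrays whose titles place them in these groups, out of 108 arrays in the series. All animals were female, ovariectomized C57BL/6 mice. The treated mice received 300 mg/kg Wy-14643 by oral gavage each day and the vehicle mice received sesame oil, with 3 mice in each group, which the study's design text describes as biological replicates, and their age was not stated in the labels. Each liver was hybridised on its own to a single-colour Cy3 Agilent whole-genome mouse array. The full series is a time course of Wy-14643 and of clofibrate in separate arms, each with its own vehicle group at every time. The other groups used below are livers at 1 day and 14 days of the same daily dose of Wy-14643, livers at 4 days of clofibrate at 300 mg/kg, and the vehicle livers of each. The removed ovaries mean that the model lacks ovarian hormones in treated and vehicle mice alike.

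Wy-14643 (pirinixic acid) is an agonist of peroxisome proliferator-activated receptor alpha (PPARα), a nuclear receptor that is abundant in hepatocytes. PPARα pairs with the retinoid X receptor and binds direct repeats of the hexamer AGGTCA, where it raises transcription of genes for fatty acid uptake, omega-oxidation, mitochondrial and peroxisomal beta-oxidation and ketone body production. In rodents its agonists are also known for liver growth, an increase of peroxisomes and lower expression of inflammatory genes. Fasting activates the same receptor through fatty acids released from adipose tissue.

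The 6 arrays listed between 21715 and 21859 probes each, with median log2 fluorescence between 9.45 and 9.51. Between 330 and 490 probes per array sat at the scanner limit (log2 of 15.74 to 16.24 after scaling), so a difference with arrays of the higher group at that limit is given as a lower bound. Arrays of the same group correlated at 0.9863 to 0.9918 over the 11671 genes tested, with 1 probe each, and arrays of different groups at 0.9683 to 0.9835. Hepatocyte markers were present as the label requires: 8 of the 8 with a probe were listed, and albumin, Apoa1, Apoh, Ahsg and Rbp4 were at the scanner limit. Of the muscle markers 6 of 6 were listed on none of the 6 arrays, and of 4 adipocyte markers Adipoq, Retn and Plin1 were listed on none. Lep was listed only on the vehicle arrays, at log2 signals of 6.12 to 6.74. Because whole liver was measured, fewer cells of a type and less RNA per cell cannot be told apart.

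After 4 days of Wy-14643, 459 of 11671 genes tested were higher (3.93%) and 503 were lower (4.31%) than in vehicle livers by limma's moderated test, at a Benjamini-Hochberg adjusted p of 0.05. The 3 largest rises were those of the lipid droplet gene Cidea, the fatty acid binding protein Fabp3 and the fatty acid omega-hydroxylase Cyp4a12a, followed by the keratin Krt23 and the phospholipase Pla2g7. The genes that fell included sulfotransferases, organic anion transporters, complement components and interferon-induced genes. Differences past 1.5-fold numbered 355 higher and 348 lower, and differences past 2-fold 177 higher and 108 lower. The 3 Wy-14643 arrays all lay above the 3 vehicle arrays for 1466 genes (12.6%) and all below them for 2197 genes (18.8%). Of the 962 genes called, 937 had no overlap between the groups. With the replicate number as a block, 1134 genes were higher (9.72%) and 1691 were lower (14.5%). The balance of directions depended on the scaling: 47.7% of called genes were higher under the main scaling and 64.2% on the values as deposited (634 higher and 353 lower). The share was 58.3% with the 75th percentile taken over all listed probes, 60.5% with median scaling and 59.3% with quantile normalization. Leaving out Wy-14643 replicate 1, Wy-14643 replicate 3 or vehicle replicate 3 reduced the higher calls to 289, 294 and 291 genes. Leaving out Wy-14643 replicate 1, Wy-14643 replicate 3 or vehicle replicate 1 reduced the lower calls to 254, 215 and 240 genes.

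**Figure D1:**
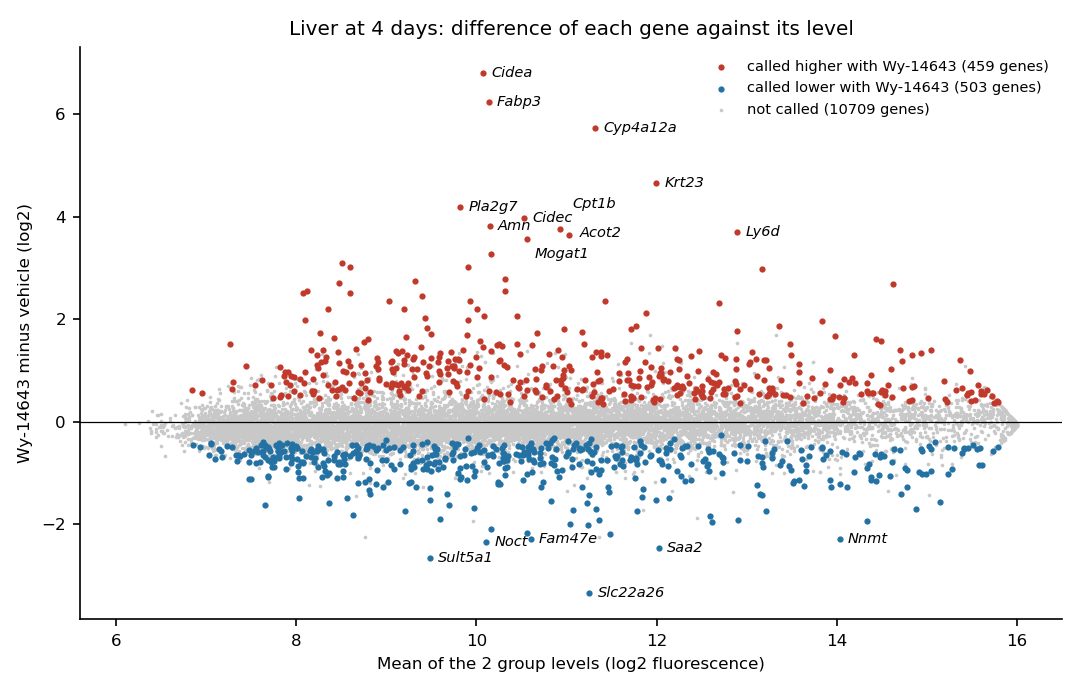
Difference between Wy-14643 and vehicle livers at 4 days (vertical axis, log2) against the mean level of each gene over the 6 arrays (horizontal axis, log2 fluorescence), 1 point per gene tested, with the 459 genes called higher and the 503 called lower in colour. Differences spread further upward than downward, from Cidea at 6.81 to Slc22a26 at -3.35.

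The strongest rise belonged to Cidea, which encodes a protein of lipid droplet contact sites that drives droplet fusion. Its log2 signal was 13.44, 13.08 and 13.93 in Wy-14643 livers, against 6.69, 6.86 and 6.46 in vehicle livers. All 3 treated livers stood far above all 3 vehicle livers, a difference of 6.81 ± 0.26 (limma estimate ± SE, n = 3 each) or 112-fold (adjusted p = 2.53e-13). Its vehicle signals lay near the lowest value listed on the vehicle arrays, 5.87, and the gene was not listed in vehicle livers of 1 and 14 days, so the size of the fold rests on dim signals. The related droplet protein Cidec read 12.63, 12.02 and 12.88 in Wy-14643 livers and 8.55, 8.38 and 8.68 in vehicle livers, 15.7-fold apart without overlap (difference 3.97 ± 0.26, adjusted p = 6.02e-15). Fabp3, the fatty acid binding protein typical of heart muscle, read 13.01, 12.78 and 13.99 in Wy-14643 livers, against 6.91, 6.94 and 7.19 in vehicle livers. It was near the dim end of the array in every vehicle liver and in the upper part of the range in every treated liver, 75.7-fold higher (6.24 ± 0.32, adjusted p = 6.63e-17).

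Cyp4a12a, a fatty acid omega-hydroxylase of the P450 family, stood at log2 signals of 13.83, 14.21 and 14.53 in Wy-14643 livers, against 7.95, 9.23 and 8.16 in vehicle livers, a 53.6-fold rise (5.74 ± 0.40, adjusted p = 4.4e-13). Probes of near-identical sister genes such as Cyp4a12a and Cyp4a12b, or Acot1 and Acot2, may take up each other's RNA, so their separate values are uncertain. Cpt1b, the muscle form of the carnitine palmitoyltransferase that admits long-chain fatty acids to mitochondria, read 13.01, 12.40 and 13.02 in Wy-14643 livers, against 9.24, 8.65 and 9.26 in vehicle livers (13.5-fold, adjusted p = 3.25e-14). Mogat1, an acyltransferase that makes diacylglycerol, read 12.52, 12.31 and 12.18 in Wy-14643 livers and 8.76, 8.90 and 8.67 in vehicle livers (11.8-fold, adjusted p = 2.11e-16). Acot2, a mitochondrial thioesterase that frees fatty acids from coenzyme A, read 12.92, 12.34 and 13.29 in Wy-14643 livers and 9.38, 9.15 and 9.11 in vehicle livers (12.4-fold, adjusted p = 2.07e-16). In each of these genes the treated livers lay within about 1 log2 unit of one another and clear of every vehicle liver.

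The rest of the 15 largest rises had other roles. Krt23, a type I keratin, was 25.4-fold higher (4.67 ± 0.45), and Pla2g7, the secreted phospholipase that inactivates platelet-activating factor, was 18.2-fold higher (4.19 ± 0.30). Amn, the membrane partner of cubilin in protein uptake, rose 14.1-fold, and the surface protein Ly6d rose 13-fold. The small heat shock protein Hspb1 rose 9.62-fold (3.27 ± 0.32), with log2 signals of 11.88, 11.63 and 11.86 in Wy-14643 livers and 8.35, 8.97 and 8.25 in vehicle livers. Dnah11, a ciliary dynein heavy chain, rose 8.61-fold and Fam183b 8.16-fold. Elovl3, an elongase of very long saturated fatty acids, read 11.33, 11.41 and 11.51 in Wy-14643 livers, against 8.26, 9.30 and 7.62 in vehicle livers, 8.1-fold higher (adjusted p = 1.07e-05). Its vehicle livers at 4 days were -1.86 on the log2 scale relative to vehicle livers at 14 days (adjusted p = 0.0328), and set against those later vehicle livers Elovl3 did not pass the test.

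**Figure D2:**
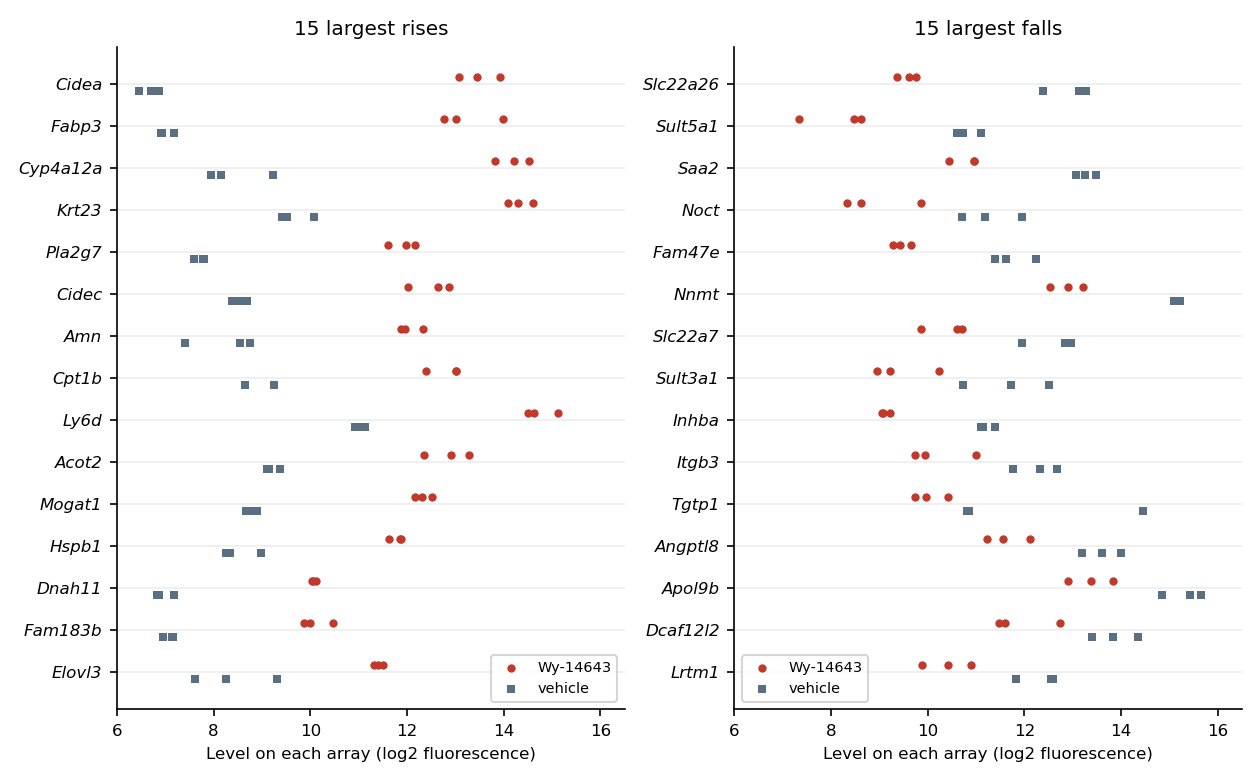
Log2 fluorescence on each of the 6 arrays (horizontal axis) for the 15 genes with the largest rises and the 15 with the largest falls (rows), with Wy-14643 and vehicle livers in different colours and 1 point per liver. The groups do not overlap for any of the 30 genes, which were chosen partly for that, and vehicle replicate 1 stands apart for Tgtp1 at 14.46.

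Promoters of the genes that moved were searched for the PPARα response element in its consensus form, a direct repeat of AGGTCA with a single base between (AGGTCANAGGTCA, both strands, up to 2 mismatches in the 12 fixed bases). Windows ran from 250 bases before to 50 bases after the annotated start (RefSeq, GRCm38.p6). A match was present in 19 of 366 higher genes with a promoter in the table (5.19%), 25 of 393 lower genes (6.36%) and 317 of 8689 genes that were not called (3.65%). Across all 32851 promoters of the table, 1268 held one (3.86%). Of the 15 genes with the largest rises, 10 had a promoter there and Mogat1 was the single one with a match. The windows of 4 fatty acid and glycerol genes that rose and held a match are shown 5′ to 3′ on the gene's strand, with the matched bases in capitals, because they place the element relative to the start of genes described here.
Mogat1 (chr1:78510810-78511109, plus strand): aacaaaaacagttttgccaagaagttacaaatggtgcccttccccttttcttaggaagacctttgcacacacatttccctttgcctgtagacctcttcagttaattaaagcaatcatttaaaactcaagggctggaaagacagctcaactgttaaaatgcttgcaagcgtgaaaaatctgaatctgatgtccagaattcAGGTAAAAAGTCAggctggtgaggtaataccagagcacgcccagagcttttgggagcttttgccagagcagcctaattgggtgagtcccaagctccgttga
Cd36 (chr5:17835847-17836146, minus strand): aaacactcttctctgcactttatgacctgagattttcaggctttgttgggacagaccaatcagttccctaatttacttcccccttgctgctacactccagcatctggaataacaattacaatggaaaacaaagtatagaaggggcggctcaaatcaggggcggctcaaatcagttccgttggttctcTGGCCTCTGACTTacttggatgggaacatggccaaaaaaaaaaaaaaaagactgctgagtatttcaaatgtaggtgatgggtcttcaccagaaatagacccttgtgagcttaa
Slc25a20 (chr9:108661886-108662185, plus strand): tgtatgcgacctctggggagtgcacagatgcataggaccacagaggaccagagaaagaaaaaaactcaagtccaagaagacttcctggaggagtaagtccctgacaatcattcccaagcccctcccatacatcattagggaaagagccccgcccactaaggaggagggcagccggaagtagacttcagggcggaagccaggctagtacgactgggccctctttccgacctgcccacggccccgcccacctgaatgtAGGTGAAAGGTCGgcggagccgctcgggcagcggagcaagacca
Aqp7 (chr4:41047913-41048212, minus strand): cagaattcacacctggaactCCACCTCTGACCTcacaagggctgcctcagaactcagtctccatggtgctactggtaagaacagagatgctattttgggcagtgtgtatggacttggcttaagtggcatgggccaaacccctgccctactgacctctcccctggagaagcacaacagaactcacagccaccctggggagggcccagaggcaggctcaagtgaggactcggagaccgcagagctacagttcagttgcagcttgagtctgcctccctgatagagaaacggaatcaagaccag
Each of the 4 matches carried 2 mismatches. The matches in Mogat1 and Cd36 lay 51 and 63 bases before the start, the one in Aqp7 230 bases before it, and the one in Slc25a20 just after it. A match in the letters says nothing of binding in these livers.

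Of the genes that carry fatty acids into mitochondria and oxidise them there, 6 of 8 and 7 of 14 rose. All 8 tested genes of the carnitine shuttle had higher signals in every Wy-14643 liver than in any vehicle liver, against 12.6% of all genes. Called were 6 of the 8, with a list median of 1.27 against -0.06 over all genes tested. Crat, which transfers short acyl groups to carnitine, read 14.31, 14.15 and 14.43 in Wy-14643 livers and 12.54, 12.54 and 12.19 in vehicle livers (3.66-fold, adjusted p = 2.18e-07). The carnitine importer Slc22a5 read 11.50, 11.25 and 11.88 in Wy-14643 livers and 9.72, 9.94 and 9.76 in vehicle livers (3.33-fold). Slc25a20, the carnitine/acylcarnitine carrier whose promoter is printed above, read 14.18, 14.11 and 14.13 in Wy-14643 livers and 13.05, 13.09 and 12.94 in vehicle livers (2.16-fold, adjusted p = 1.76e-09). Cpt2, the inner membrane transferase, rose at least 1.32-fold, since its probe was at the scanner limit in all 3 treated livers. Cpt1a, the liver form of the outer membrane enzyme, differed by 0.32 ± 0.18 and did not pass the test (adjusted p = 0.289).

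Inside mitochondria, 7 of the 14 beta-oxidation genes that could be tested were higher and none was lower (1 with the replicate block), with a median difference of 0.43. Decr1, a reductase needed for unsaturated fatty acids, read 11.44, 11.61 and 11.36 in Wy-14643 livers and 10.16, 10.45 and 9.84 in vehicle livers, and rose 2.49-fold (adjusted p = 8.14e-05). The long-chain dehydrogenase Acadl read 14.56, 14.31 and 14.41 in Wy-14643 livers and 13.48, 13.53 and 13.26 in vehicle livers (2.01-fold, adjusted p = 1.49e-07). Neither gene's groups overlapped. Acad11 rose 2.04-fold, and Hadha and Hadhb, the subunits of the trifunctional protein, rose 1.71-fold and at least 1.63-fold, with Hadhb at the scanner limit in 2 of 3 treated livers. Etfdh, which passes electrons from these dehydrogenases to the respiratory chain, rose at least 1.46-fold with 2 treated livers at the limit, and Acads rose 1.4-fold.

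Among genes of peroxisomal beta-oxidation 2 of 12 tested rose: Eci3, an enoyl-CoA isomerase, by 1.88-fold (0.91 ± 0.11, adjusted p = 1.05e-07), and Ech1, a dienoyl-CoA isomerase, by at least 1.53-fold. At 1 day and at 14 days 5 genes of the list were called higher. Acaa1a, Acaa1b, Scp2, Eci2, Phyh and Cat of this list had a probe but could not be tested at 4 days. Ehhadh, the peroxisomal bifunctional enzyme, read 15.85, 16.09 and 15.99 in Wy-14643 livers and 16.14, 15.72 and 15.75 in vehicle livers, a difference of 0.10 ± 0.33 that did not pass the test (adjusted p = 0.906). All 3 treated livers and 1 vehicle liver were at the scanner limit for it, so the size of the difference was not measured. Among peroxins, the proteins that build peroxisomes, 1 of 16 rose (6.25%, against 3.93% over all genes). It was Pex11a, a peroxisome division factor, with 15.72, 15.21 and 15.90 in Wy-14643 livers and 14.34, 14.07 and 14.39 in vehicle livers (2.54-fold, adjusted p = 0.000531). With the replicate block 7 peroxins were higher and 1 was lower. Of 11 acyl-CoA thioesterases 2 rose, Acot2 and the peroxisomal Acot8 (2.47-fold). Acot1 differed by at least 1.09 ± 0.47, with its treated livers at the scanner limit, and did not pass the test (adjusted p = 0.149).

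Omega-oxidation begins the shortening of fatty acids from the methyl end in the endoplasmic reticulum. Of 10 tested genes 4 rose and 2 fell. Cyp4a10, Cyp4a14 and Cyp4a29 had a probe but could not be tested. Beside Cyp4a12a, Cyp4a12b rose 3.2-fold, with log2 signals of 14.72, 14.87 and 14.87 in Wy-14643 livers and 13.11, 13.22 and 13.10 in vehicle livers (adjusted p = 7.62e-05). Cyp4a31 rose 2.69-fold (adjusted p = 0.0372), and Aldh3a2, the fatty aldehyde dehydrogenase, at least 2.31-fold with all 3 treated livers at the scanner limit. Cyp4f14, which hydroxylates leukotriene B4 in mouse, fell 3.27-fold, with 14.10, 14.20 and 13.78 in Wy-14643 livers and 15.82, 15.71 and 15.66 in vehicle livers (adjusted p = 0.000109). Cyp4f18 fell 1.61-fold. Leaving out any 1 of the 6 arrays reduced the 4 rises to 2 or 3.

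The small differences of several PPARα target genes at 4 days came with high values in the vehicle livers of that day. Ehhadh read 14.17, 14.14 and 11.46 in vehicle livers of day 1. On day 4 it read 16.14, 15.72 and 15.75, and on day 14 14.55, 14.87 and 14.08, and all 3 vehicle livers at 4 days lay above all others. Cyp4a12b read 10.77, 10.50 and 8.60 in vehicle livers of day 1. On day 4 it read 13.11, 13.22 and 13.10, and on day 14 11.05, 11.34 and 11.27. The vehicle livers at 4 days exceeded those at 14 days by at least 1.37 for Ehhadh (adjusted p = 0.0266) and by 1.92 for Cyp4a12b (adjusted p = 9.44e-05). Vnn1, a pantetheinase, exceeded by 1.32 and Lpl by 1.73. Over all genes, 112 of 11528 were higher in vehicle livers at 4 days than at 14 days (0.972%) and 13 were lower (0.113%). Feeding state and hour of killing were not stated in the labels, and their part in these levels was not tested. With the vehicle livers at 14 days in place of those at 4 days, a comparison chosen after seeing the values, 944 genes were higher and 863 lower in Wy-14643 livers, and 5 peroxisomal beta-oxidation genes were higher and 1 lower.

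**Figure D3:**
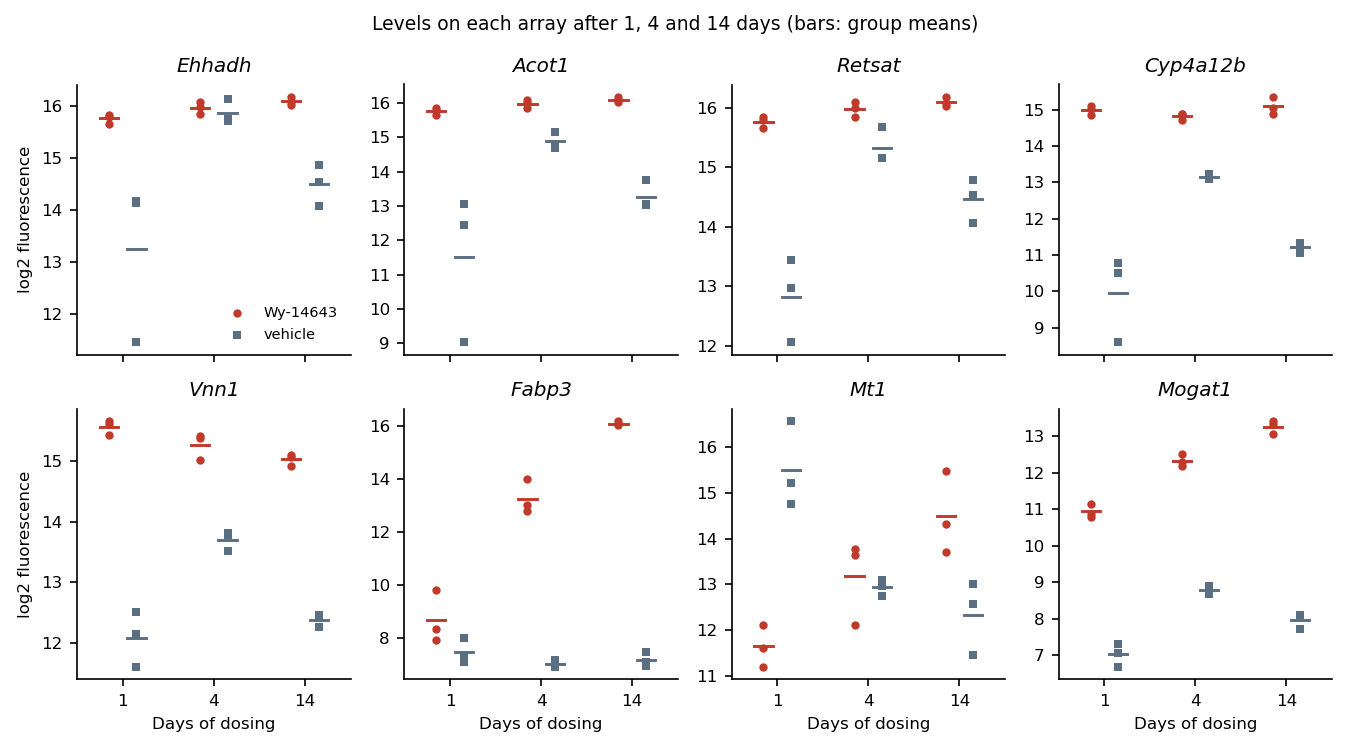
Log2 fluorescence of 8 genes (panels) in single livers at 1, 4 and 14 days (horizontal axis), with Wy-14643 livers left of vehicle livers at each day and 1 point per liver. The vehicle livers at 4 days stand above those at 1 and 14 days for Ehhadh and Cyp4a12b, and Fabp3 reaches the scanner limit in Wy-14643 livers at 14 days.

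Of 16 genes of fatty acid uptake, binding and activation 8 rose and 2 fell. Cd36, the fatty acid translocase, read 14.88, 14.12 and 14.97 in Wy-14643 livers, against 11.73, 11.70 and 11.60 in vehicle livers, and rose 7.89-fold without overlap (2.98 ± 0.34, adjusted p = 1.47e-08). Fabp4, the fatty acid binding protein typical of adipocytes and macrophages, read 15.85, 16.09 and 15.99 in Wy-14643 livers and 13.31, 13.18 and 13.34 in vehicle livers. All 3 treated values are at the scanner limit, so the rise of 6.48-fold is a lower bound (adjusted p = 4.15e-11). Lpl, which frees fatty acids from circulating triglyceride, read 15.33, 14.84 and 15.56 in Wy-14643 livers and 13.80, 13.40 and 13.69 in vehicle livers (3.06-fold, adjusted p = 0.00162). The transporter Slc27a1 and the lipoprotein receptor Vldlr rose 2.84-fold and 2.29-fold. Slc27a4 rose by 1.05 on the log2 scale and Fabp2 by at least 0.60, with 2 treated livers at the scanner limit. The brain-type binding protein Fabp7 and the medium-chain ligase Acsm1 were lower, with differences of -0.87 and -0.57, and neither was called without vehicle replicate 1 or Wy-14643 replicate 1.

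Of the genes for storage and release of triglyceride, those called rose, and 1 droplet gene was lower with the replicate block. Of 17 droplet and lipolysis genes 5 rose, Cidea and Cidec as above, Fitm1 (2.94-fold) and Fitm2, which partition fat into droplets, and Pnpla2, the adipose triglyceride lipase (1.81-fold, adjusted p = 0.000873). Plin2, the main droplet coat protein of hepatocytes, differed by 0.04 ± 0.15 and did not pass the test (adjusted p = 0.92), with all 3 treated and 2 vehicle livers at the scanner limit. Of 13 triglyceride synthesis genes 3 rose, Mogat1, the glycerol phosphate acyltransferase Gpat3 (2.48-fold) and the phosphatidate phosphatase Lpin2 (1.62-fold, though its brightest probe that never saturates differed by -0.18). With the replicate block 6 of these 13 were higher and 1 lower. Of 17 fatty acid synthesis genes 2 rose, Elovl3 and Me1, the malic enzyme that makes NADPH, with log2 signals of 15.15, 14.54 and 14.76 in Wy-14643 livers and 12.79, 13.10 and 12.70 in vehicle livers (3.88-fold, adjusted p = 0.00122). The replicate block gave 4 higher fatty acid synthesis genes. None of 15 cholesterol synthesis and uptake genes passed limma's test in either direction, at an unadjusted p under 0.05 or with the replicate block, and their median difference was 0.05.

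Genes of fasting and ketone body production rose in part, 4 of 8. Pdk4, the kinase that shuts off pyruvate dehydrogenase, read 12.87, 12.43 and 12.58 in Wy-14643 livers and 11.13, 10.43 and 10.88 in vehicle livers (3.51-fold, adjusted p = 0.00234). Angptl4, a secreted inhibitor of lipoprotein lipase, rose 2.45-fold (1.29 ± 0.31). Slc16a1, a carrier of ketone bodies and lactate, and Acat1, the mitochondrial thiolase, rose 1.73-fold and 1.57-fold. Fgf21, a hormone of fasting, differed by 0.80 ± 0.49 without passing the test (adjusted p = 0.349). Of 25 genes on a further list of known PPARα targets, which repeats Cpt1b and Acat1 from the lists above, 10 rose and none fell, with a median of 0.53. Among them Aqp7, a glycerol channel whose promoter is printed above, read 9.45, 8.95 and 9.78 in Wy-14643 livers and 6.81, 6.84 and 6.89 in vehicle livers (5.84-fold, adjusted p = 9.97e-09). Clstn3 rose 4.32-fold, the channel Trpv2 4.15-fold and Vnn1 2.96-fold. None of 13 tested genes for PPARs, retinoid X receptors and coregulators passed limma's test, at an unadjusted p under 0.05 or with the replicate block.

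Genes usually described in brown fat and muscle had the largest median of all lists tested, 3.02 over 7 genes, of which 5 rose. They were Cidea, Fabp3, Cpt1b and Elovl3, with the values above, and Cox7a1, a heart and muscle subunit of cytochrome oxidase (1.75-fold, adjusted p = 0.0129). Cidea, Fabp3, Cpt1b and Elovl3 are also among the 15 largest rises, so the list median repeats them. Ucp1, Ucp3, Cox8b, Dio2 and Otop1 of the list had a probe but could not be tested. Against the vehicle livers of 14 days 2 of the list were higher, Fabp3 and Cpt1b, and Elovl3 and Cox7a1 were not called. Cidea was not listed in those vehicle livers and could not be tested against them. Within the respiratory chain 5 of 65 genes rose and none fell, led by Cox6b2, the testis form of another cytochrome oxidase subunit, with log2 signals of 11.64, 11.67 and 11.47 in Wy-14643 livers and 9.32, 9.08 and 8.72 in vehicle livers (5.86-fold, adjusted p = 9.71e-14). With the replicate block 27 of the 65 were higher and 1 was lower, and without vehicle replicate 3 or Wy-14643 replicate 1, 3 were higher. Slc25a4, the ADP/ATP carrier typical of heart and muscle, rose 2.64-fold among 36 mitochondrial carriers, of which 4 rose and 2 fell. Of the respiratory chain list 7.69% rose, and of the carriers 11.1% rose and 5.56% fell. Among all genes tested 3.93% rose and 4.31% fell, so the carrier falls lie near that share.

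The deepest fall was that of Slc22a26, a member of the organic anion transporter family. It read 9.36, 9.76 and 9.60 in Wy-14643 livers, against 12.38, 13.12 and 13.28 in vehicle livers, a 10.2-fold fall (-3.35 ± 0.31, adjusted p = 1.4e-10). Its relative Slc22a7 read 10.71, 10.62 and 9.85 in Wy-14643 livers and 12.84, 12.96 and 11.95 in vehicle livers (4.56-fold lower). Nnmt, which methylates nicotinamide, read 13.21, 12.91 and 12.54 in Wy-14643 livers and 15.20, 15.22 and 15.10 in vehicle livers (4.89-fold lower, adjusted p = 1.05e-07). In all of these genes every treated liver lay below every vehicle liver. Noct, a phosphatase with a daily rhythm, fell 5.08-fold, Inhba, the subunit of activin A, 4.3-fold, and Angptl8, a regulator of lipoprotein lipase that rises with feeding, 3.92-fold. Fam47e, Apol9b, Dcaf12l2 and Lrtm1 fell 4.9-, 3.82-, 3.8- and 3.78-fold. Integrin subunit Itgb3 fell 4.07-fold, and its call was lost under the other scalings tried. Leaving out 1 of the 6 arrays took the call from between 3 and 6 of the 30 genes with the largest changes, among Angptl8, Dcaf12l2, Itgb3, Noct, Saa2, Sult3a1 and Tgtp1.

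Sulfotransferases, which attach sulfate to steroids, bile acids and drugs, fell in 5 of 15 genes tested and rose in 1, with a median of -0.79. These are 33.3% lower and 6.67% higher, against 4.31% and 3.93% over all genes. Sult5a1 read 7.34, 8.62 and 8.48 in Wy-14643 livers, against 10.73, 11.11 and 10.60 in vehicle livers (6.35-fold lower, adjusted p = 0.0014). Sult3a1 fell 4.53-fold and Sult1a1, the main phenol sulfotransferase, at least 2.98-fold, with 1 vehicle liver at the scanner limit. Sult2a7 rose 2.83-fold, and members of that cluster are near-identical in sequence. With the replicate block 10 were lower, and leaving out any 1 array other than vehicle replicate 1 left 2 or 3 lower. Among 30 Cyp2 and Cyp3 enzymes 3 fell (10%) and none rose. The 3 were Cyp2g1 (3.22-fold), Cyp2c70, which makes muricholic acids in mouse (at least 1.8-fold), and Cyp2d13. Cyp2c70 was at the scanner limit in 2 of 3 vehicle livers. The 3 became 1 without vehicle replicate 3, Wy-14643 replicate 1 or Wy-14643 replicate 3, as did the 3 falls among the bile acid genes below. The block gave 8 lower Cyp genes and 6 lower bile acid genes. Among 18 glutathione S-transferases Mgst3 (2.7-fold), Gstt2 and Gstk1 were higher (16.7%). Gstm2 was lower, which at 5.56% of the list lies near the share over all genes. Without Wy-14643 replicate 2, 1 gene of the list was called lower, and without any other single array none was. No glucuronosyltransferase of 13 was called by limma, against 1 higher and 2 lower at an unadjusted p under 0.05 and 1 higher and 1 lower with the replicate block.

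Bile acid and lipoprotein genes moved in small numbers. Of the bile acid list 4.55% rose and 13.6% fell, against 3.93% and 4.31% over all genes. Among 22 bile acid genes the export pump Abcc4 rose 4.18-fold, with log2 signals of 11.57, 11.04 and 11.83 in Wy-14643 livers and 9.56, 9.16 and 9.52 in vehicle livers (adjusted p = 7.57e-08). The uptake carriers Slco1a4 and Slc10a1 fell 3.3-fold and 1.57-fold, and Cyp39a1, an oxysterol hydroxylase, fell 2.79-fold. Of 10 lipoprotein genes Pltp, the phospholipid transfer protein, rose 2.78-fold, and Angptl8, Apoa4 (3.76-fold), the HDL receptor Scarb1 (1.7-fold) and Apoc3 fell. Apoc3 was at the scanner limit in all 3 vehicle livers, which makes its fall of 1.42-fold a lower bound. Amino acid catabolism and urea cycle genes fell in 6 of 22 and rose in none. Asl, argininosuccinate lyase, read 13.48, 13.67 and 12.90 in Wy-14643 livers and 14.31, 14.78 and 14.37 in vehicle livers (2.2-fold, adjusted p = 0.00656), and Otc, ornithine transcarbamylase, fell 1.78-fold. Hal, Prodh, Cbs and Sardh were lower, with differences of -0.99, -0.99, -0.78 and -0.52 on the log2 scale. Without Wy-14643 replicate 3, 1 of this list was lower, and with the replicate block 10 were. The 4 lipoprotein falls became 2 without vehicle replicate 1, vehicle replicate 3, Wy-14643 replicate 1 or Wy-14643 replicate 3.

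Complement genes, which hepatocytes secrete, fell broadly. Of 15 tested 10 were lower (4.31% over all genes) and none higher, and the median was -0.69. The 3 treated livers lay below the 3 vehicle livers for 13, against 18.8% of all genes. C8b read 10.99, 11.20 and 11.47 in Wy-14643 livers and 12.57, 12.89 and 12.80 in vehicle livers (2.9-fold lower, adjusted p = 4.28e-05). C9, the pore-forming component, read 8.00, 8.18 and 8.21 in Wy-14643 livers and 9.47, 9.79 and 9.16 in vehicle livers (2.53-fold lower, adjusted p = 0.00046). C1s1, C4b and C2 of the early pathway fell 2.42-, 2.02- and 1.55-fold, and the lectin pathway protease Masp1 fell 1.62-fold. Without vehicle replicate 2, 6 of the 15 were called lower, and without any other array 7 to 9. Acute phase genes had a lower median, -0.89, with fewer calls, 4 of 17: Saa2 (5.58-fold), Itih4 (2.7-fold), Orm1 (2.06-fold) and Crp (1.7-fold). Saa2 read 10.96, 10.96 and 10.44 in Wy-14643 livers and 13.48, 13.25 and 13.07 in vehicle livers, without overlap (adjusted p = 0.0207). The replicate block brought the acute phase falls to 8, and leaving out vehicle replicate 2, Wy-14643 replicate 1 or Wy-14643 replicate 3 brought them to 1, 2 and 2. Of 12 coagulation genes 4 fell, F11 (2.22-fold), F7 (1.95-fold), F5 and Proz, and of 21 serpins 4 fell, led by Serpina3j (2.48-fold).

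Interferon-induced genes were lower in 17 of 23 tested, with a median of -0.97, and none was higher. Isg15, a ubiquitin-like modifier, read 10.66, 10.34 and 10.29 in Wy-14643 livers and 12.61, 11.79 and 11.69 in vehicle livers (3.03-fold lower, adjusted p = 1.99e-05). Irf7, a transcription factor of the response, read 8.81, 9.26 and 8.84 in Wy-14643 livers and 10.80, 10.51 and 9.84 in vehicle livers (2.65-fold lower). Vehicle replicate 1 stood apart in the guanylate-binding and immunity-related GTPases. Gbp3 read 10.61, 10.42 and 10.38 in Wy-14643 livers and 13.38, 11.52 and 11.62 in vehicle livers, and Tgtp1 read 10.42, 9.96 and 9.73 in Wy-14643 livers and 14.46, 10.82 and 10.84 in vehicle livers. Without that liver 9 of the 23 interferon genes were lower, with a median of -0.68. Of 16 antigen presentation genes 8 were lower, led by the immunoproteasome subunit Psmb8 (11.45, 11.71 and 10.99 in Wy-14643 livers and 13.63, 12.58 and 12.43 in vehicle livers, adjusted p = 7.79e-06). The class II genes H2-Ab1 and H2-Eb1 and their activator Ciita were lower, with differences of -1.02, -0.97 and -0.99 on the log2 scale. Without vehicle replicate 1, 1 antigen presentation gene was lower and the median was -0.44. Without Wy-14643 replicates 1 and 3, left out in turn, 3 and 2 were lower. With vehicle livers of 14 days in place of those of 4 days, 10 interferon genes and 4 antigen presentation genes were lower.

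Markers of Kupffer cells, the resident macrophages of liver, moved the same way as these immune lists. Of 12 tested 4 were lower, against 4.31% over all genes, with a median of -0.61. All treated livers lay below all vehicle livers for 10 of them, against 18.8% of all genes. The scavenger receptor Cd163 read 10.82, 10.80 and 11.00 in Wy-14643 livers and 11.68, 11.72 and 11.68 in vehicle livers (1.77-fold lower, adjusted p = 0.00415), and C1qb, C1qc and Csf1r were lower, with log2 differences of -0.65, -0.61 and -0.61. The summed level of the 12 markers was 15.87 to 16.18 in Wy-14643 livers and 16.28 to 16.95 in vehicle livers. The sums of 5 other marker lists were also lower without overlap, and those of lymphocyte, neutrophil, erythroid, sinusoidal endothelial and cholangiocyte markers overlapped. Stellate cell markers summed to 15.28 to 15.43 in Wy-14643 livers and 15.59 to 15.70 in vehicle livers, and the 3 hepatocyte markers that could be tested to 16.05 to 16.18 in Wy-14643 livers and 16.36 to 16.60 in vehicle livers. Periportal markers summed to 16.27 to 16.87 in Wy-14643 livers and 17.20 to 17.29 in vehicle livers, and pericentral markers to 17.15 to 17.20 in Wy-14643 livers and 17.54 to 17.63 in vehicle livers. The hepatocyte sum mainly follows Tat, at 15.59 to 15.69 in Wy-14643 livers and 15.74 to 16.24 in vehicle livers. Vehicle values of Tat reached the scanner limit, so that difference is a lower bound. Ass1 among periportal and Oat among pericentral markers reached it too, so the sizes of those differences were not fully measured. The 2 pancreatic markers summed to 10.21 to 10.57 in Wy-14643 livers and 10.80 to 11.22 in vehicle livers. Without vehicle replicate 1 or Wy-14643 replicate 1, 1 marker was called lower, without vehicle replicate 2 or Wy-14643 replicate 3, 2 were, and against the vehicle livers of 14 days none was. With the block as many as 10 were lower. The part of these cells in the falls of interferon, antigen presentation and complement genes was not tested. Of 7 lymphocyte markers Nkg7 fell, and no marker of stellate cells, sinusoidal endothelium, cholangiocytes, neutrophils or erythroid cells was called by limma, with 0 or 1 of each at an unadjusted p under 0.05 and 0 to 2 with the replicate block. Beside these, 2 of 9 pericentral markers (Lgr5 and Slc1a2), 2 of 5 periportal markers (Asl and Hal) and the pancreatic Amy2a5 were lower. No pericentral marker was called without vehicle replicate 3 or Wy-14643 replicate 1, and no periportal marker without Wy-14643 replicate 3. The call of the pancreatic marker was lost without vehicle replicate 2, Wy-14643 replicate 2 or Wy-14643 replicate 3, and that of Nkg7 without vehicle replicate 1 or Wy-14643 replicate 3.

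Cell cycle genes leaned upward with large differences between vehicle livers. Of 35 tested 7 were higher (3.93% over all genes) and none lower, and the median was 0.89. For 26 all treated livers lay above all vehicle livers, against 12.6% of all genes. Cdk1, the kinase of mitotic entry, read 10.80, 10.74 and 10.94 in Wy-14643 livers, against 9.82, 9.46 and 8.50 in vehicle livers (2.96-fold, adjusted p = 0.0209). Aurkb, a mitotic kinase, read 9.77, 9.92 and 9.96 in Wy-14643 livers and 9.08, 8.76 and 7.90 in vehicle livers (2.48-fold, adjusted p = 0.00663). Vehicle replicate 3 was the lowest of the vehicle livers for both. The replication genes Mcm7, Tyms, Gins1 and Pcna rose 1.84-, 1.7-, 1.57- and 1.55-fold. Without vehicle replicate 3 none of the list was called. Without vehicle replicate 2, Wy-14643 replicate 1 or Wy-14643 replicate 3, 3, 1 and 2 were. With the replicate block 16 were higher. Vehicle livers at 4 days were higher than those at 14 days for 8 of 30 genes of the list, and against the 14-day vehicle livers 26 of 30 were higher in Wy-14643 livers, with a median of 2.22. Of 16 growth control and p53 target genes Phlda3 rose (2.31-fold), 6.25% of the list against 3.93% over all genes.

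A few members of the protein quality control and stress lists were called. Over all genes 3.93% were higher and 4.31% lower. The single falls in the endoplasmic reticulum stress (4.55%), heat shock (6.67%) and clock (7.14%) lists lie near that share of lower genes. Of 35 genes on the list of the constitutive proteasome 7 rose and none fell, among them the core subunit Psmb5 (15.24, 15.18 and 15.08 in Wy-14643 livers and 14.56, 14.71 and 14.22 in vehicle livers, 1.59-fold, adjusted p = 0.000202). One of the 7, Psmc3ip, is a recombination cofactor and no proteasome subunit. The 7 became 3 and 1 without vehicle replicates 1 and 3, 2 and 1 without Wy-14643 replicates 1 and 3, and 19 with the replicate block. Of 15 heat shock genes Hspb1, Hspa4l and Hsp90aa1 (at least 1.54-fold, 1 treated liver at the scanner limit) rose and Bag3 (1.78-fold) fell, and without Wy-14643 replicate 3, 1 rose. Of 16 NRF2 targets the carbonyl reductase Cbr3 (3.96-fold) and Pgd rose, with 1 called without vehicle replicate 3, Wy-14643 replicate 1 or Wy-14643 replicate 2. Ddit3 fell among 22 genes of endoplasmic reticulum stress, Per2 (3.57-fold) among 14 clock genes, and Junb (2.41-fold) and Nr4a1 among 13 immediate early genes. The immediate early calls were both lost without vehicle replicate 1, vehicle replicate 3, Wy-14643 replicate 1 or Wy-14643 replicate 3. Under the replicate block 5 immediate early and 4 endoplasmic reticulum stress genes were lower, and 4 NRF2 targets and 5 growth control genes were higher.

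The remaining lists held between 0 and 3 calls each. Over all genes 3.93% were higher and 4.31% lower. Single calls stand near these shares, as in the retinol (7.69% higher), aldehyde dehydrogenase (6.67% lower) and ribosomal protein (2.56% lower) lists. Of 19 lysosomal and autophagy genes Map1lc3a rose (2.42-fold) and Ctsa (1.79-fold) and Ctsz fell. Tdo2 and Nmnat1 rose and Nnmt fell among 15 genes of the tryptophan to NAD route, and Pklr and Khk fell among 11 glucose and glycerol genes. The tryptophan rises were both lost without vehicle replicate 3 or Wy-14643 replicate 1, and 1 was lost without vehicle replicate 1 or Wy-14643 replicate 3. The glucose falls were lost, 1 or both, whichever array was left out, and both were lost on the values as deposited and under 2 other scalings. Dhrs4 rose among 13 retinol genes, where Retsat, retinol saturase, differed by at least 0.65 ± 0.21 with treated livers at the scanner limit (adjusted p = 0.0515, and 0.0196 with the replicate block). One of 39 ribosomal protein genes (Rpl7l1) and Aldh3b3 among 15 aldehyde dehydrogenases were lower. None of 13 growth hormone and IGF axis genes and none of 5 aryl hydrocarbon receptor genes was called by limma, while 5 and 2 were lower at an unadjusted p under 0.05 and 4 and 1 with the replicate block. Among 12 sex-biased liver genes Elovl3 rose and Sult3a1 fell. Under the replicate block 5 retinol genes and 3 aldehyde dehydrogenases were higher and 4 aldehyde dehydrogenases lower. In lists with calls in a single direction, between 0 and 2 genes reached an unadjusted p under 0.05 in the other.

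**Figure D4:**
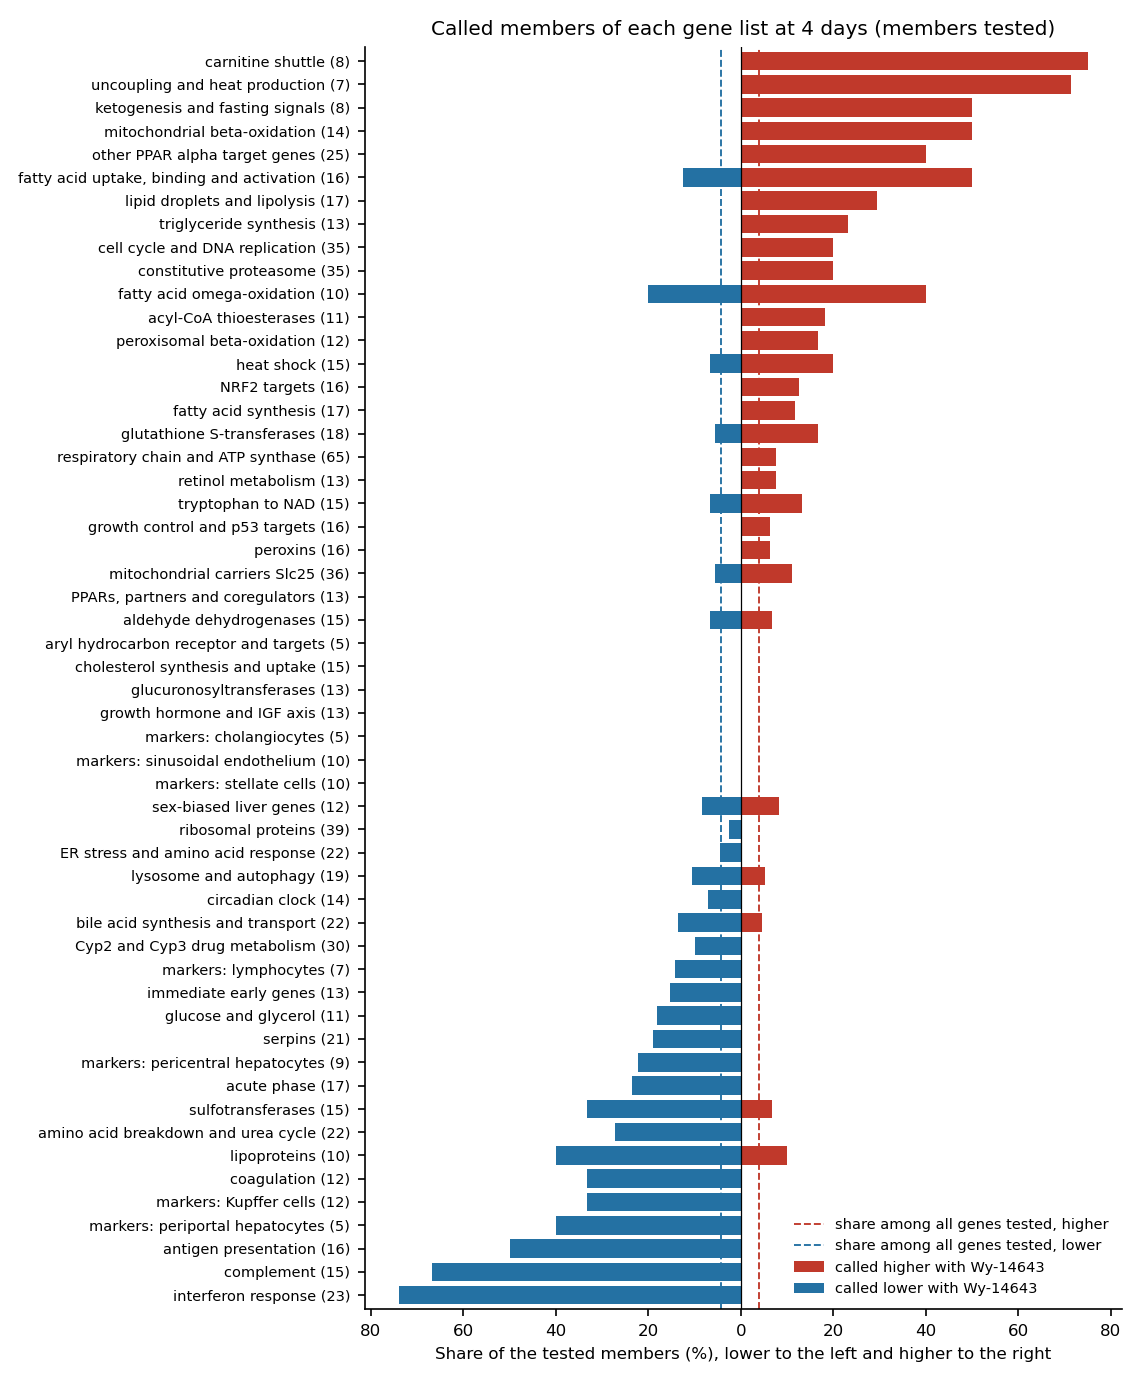
Share of each gene list called higher (right of 0) or lower (left of 0) in Wy-14643 livers than in vehicle livers at 4 days (horizontal axis, percent of genes tested), for lists with at least 5 genes tested, with dashed lines at the shares over all genes, 3.93% and 4.31%. The carnitine shuttle and uncoupling lists lie furthest to the right, and the interferon and complement lists furthest to the left.

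The 4-day effect was then set against the effect of a single day of dosing. Of the genes tested, 865 were higher (7.38%) and 1877 lower (16%) at 1 day. Of 891 genes called at 4 days and tested at both other times, 451 were called with the same sign at 1 and at 14 days, 138 at 1 day only, 159 at 14 days only and 143 at neither. The effect itself differed between 4 days and 1 day for 54 genes of 11344, 36 upward (0.317%) and 18 downward (0.159%). Fabp3 gained most, with an effect of 6.24 at 4 days against 1.22 at 1 day (difference 5.02 ± 0.46, adjusted p = 3.42e-09). The phospholipase Pla2g7 gained 2.78 ± 0.42, with 4.19 at 4 days against 1.41 at 1 day. The metallothioneins Mt1 and Mt2, which bind zinc and copper, were near their vehicle level at 4 days (effects of 0.24 and 0.26) and below it at 1 day (-3.87 and -3.97). With 1 vehicle liver of 1 day at the scanner limit for Mt1 and 2 for Mt2, these falls are lower bounds. Smpd3, a neutral sphingomyelinase, the fructose transporter Slc2a5, Elapor1 and Niban2 also had higher effects at 4 days, by 2.52, 1.86, 1.81 and 1.61.

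Genes of fatty acid metabolism were among those with a lower effect at 4 days. Cyp4a12b had an effect of 1.68 at 4 days against 5.03 at 1 day (difference -3.35 ± 0.41, adjusted p = 1.95e-06). Ehhadh had 0.10 at 4 days against 2.51 at 1 day, Acot1 1.09 against 4.26, Cyp4a31 1.43 against 4.62 and Retsat 0.65 against 2.94. The treated livers of both days were at the scanner limit for Ehhadh, Acot1 and Retsat, so their effects are limited by it and the differences between days have no bound. Vnn1, the laminin subunit Lamb3 and the chaperone Hsph1 differed by -1.90, -1.79 and -1.67, and 1 treated liver of 1 day was at the limit for Vnn1. One vehicle liver of 1 day stood apart in these genes: Ehhadh read 14.17, 14.14 and 11.46 in the 3 vehicle livers of that day. Without vehicle replicate 3 of 1 day the difference was -1.51 for Ehhadh (adjusted p = 0.00108), -1.92 for Acot1 and -2.67 for Cyp4a12b, and Niban2 lost its call. The 54 calls became 86 and 165 without vehicle replicates 1 and 2 of 1 day, and 31, 25 and 32 without Wy-14643 replicates 1, 2 and 3 of 1 day. They became 29 and 28 without vehicle replicates 1 and 2 of 4 days, and 23 without Wy-14643 replicate 2 of 4 days. The replicate block gave 422 and the values as deposited, without scaling, 3678.

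The 4-day effect was also set against the effect of 14 days of dosing. At 14 days 1099 genes were higher (9.54%) and 617 lower (5.36%), and the effect differed from that at 4 days for 45 of 11257 genes, 7 upward (0.0622%) and 38 downward (0.338%). Fabp3 had an effect of 6.24 at 4 days against at least 8.93 at 14 days, when all 3 treated livers were at the scanner limit. Lpl had 1.61 at 4 days against 3.97 at 14 days (difference -2.36 ± 0.49, adjusted p = 0.00789), and Mogat1 had 3.56 against 5.30. Acss1, the mitochondrial acetyl-CoA synthetase, the desaturase Scd2, the surface protein Cd24a and the stress protein Nupr1 differed by -2.36, -2.29, -1.97 and -1.87, and Cyp4a12b by -2.20. On the other side stood genes whose effect was lower at 14 days. Sult2a6, a hydroxysteroid sulfotransferase, had an effect of -0.61 at 4 days against -4.54 at 14 days (adjusted p = 2.03e-09), and its neighbour Sult2a3 had -1.10 against -4.27. C9 had -1.34 at 4 days against -3.01 at 14 days. Sult2a6, Hsd11b1 and Mup3 were at the scanner limit in all 3 vehicle livers of 4 days, so the sizes of their effects at that time are lower bounds, of which Hsd11b1's alone passed the test of the 4-day effect, and the difference of Sult2a6 between days is an upper bound. Hsd11b1, which reactivates glucocorticoids, and the major urinary protein Mup3 were at the limit in all 3 vehicle livers of 14 days too, and their differences of 1.54 and 1.44 have no bound. Rdh16f2 and Lrtm1 differed by 1.23 and 2.21. The replicate block gave 204 genes in place of 45. Scd2 lost its call in 12 of the other settings tried, Nupr1 and Mup3 in 7 each, Lrtm1 in 6 and C9 in 4.

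Clofibrate, a fibrate drug that also activates PPARα, was given in the other arm at the same dose of 300 mg/kg for the same 4 days. It was followed by 39 genes higher (0.375%) and 31 lower (0.298%) of 10403. Vehicle livers of that arm at 4 days also read high for Ehhadh (15.84, 15.96 and 15.89) and Cyp4a12b (13.52, 13.10 and 13.78). The part of these levels in the number of calls was not tested. The effect of Wy-14643 minus that of clofibrate passed the test for 117 of 10365 genes, 74 upward (0.714%) and 43 downward (0.415%). Each effect was taken against its own vehicle arm. Equal-numbered vehicle arrays of the 2 arms at 4 days deviated together for replicates 1 and 3 (r = 0.293 and 0.388). For replicate 2 r was 0.0225, within the range of other pairs, -0.352 to 0.117. Whether animals were shared is not stated, and the fit counts the vehicle groups as separate. Vehicle replicate 1 of the clofibrate arm at 4 days also correlated at 0.999981 with an array of 14 days, and without it 68 genes differed. Leaving out vehicle replicate 3 of the Wy-14643 arm gave 53, Wy-14643 replicate 1 or 3 gave 68 and 64, and clofibrate replicate 3 gave 68. The replicate block gave 619 genes, 281 upward and 338 downward.

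Fatty acid genes were among the clearest differences between the compounds. Cpt1b read 13.01, 12.40 and 13.02 with Wy-14643 and 10.56, 9.21 and 9.58 with clofibrate, against 9.24, 8.65 and 9.26 and 9.89, 8.99 and 9.43 in their vehicle livers. The Wy-14643 effect exceeded the clofibrate effect by 3.41 ± 0.42 (adjusted p = 1.69e-08). Acot2 exceeded by 3.17 ± 0.35, Cidec by 3.02 ± 0.36 and Pdk4 by 3.10 ± 0.66, with clofibrate effects of 0.47, 0.95 and -1.29. The mitotic genes Ect2, Kif20a, Plk1 and Ccnb2 differed by 3.43, 3.33, 3.27 and 3.14. The separate effects of Kif20a were 1.69 with Wy-14643 and -1.64 with clofibrate, and neither passed its own test. Of the 4 genes Ect2 passed with Wy-14643 and none with clofibrate. Nnmt had an effect of -2.29 with Wy-14643 against 0.53 with clofibrate (difference -2.82 ± 0.42, adjusted p = 2.49e-06). Slc2a5, Slc22a26, Cyp39a1 and Tedc2 had lower effects with Wy-14643, with differences of -2.12, -2.01, -1.77 and -1.68. Sult1a1 differed by -1.68, a value with no bound, since all 3 clofibrate livers, 2 of their vehicle livers and 1 vehicle liver of the Wy-14643 arm were at the scanner limit. Proline oxidase Prodh (-2.07, with 1 clofibrate liver at the limit) and Asl (-1.78) also had lower effects. Plk1 lost its call in 11 of the other settings, Ccnb2 in 10, Kif20a in 9, Slc22a26 and Tedc2 in 8 each, Cyp39a1 in 2 and Asl in 1.

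**Figure D5:**
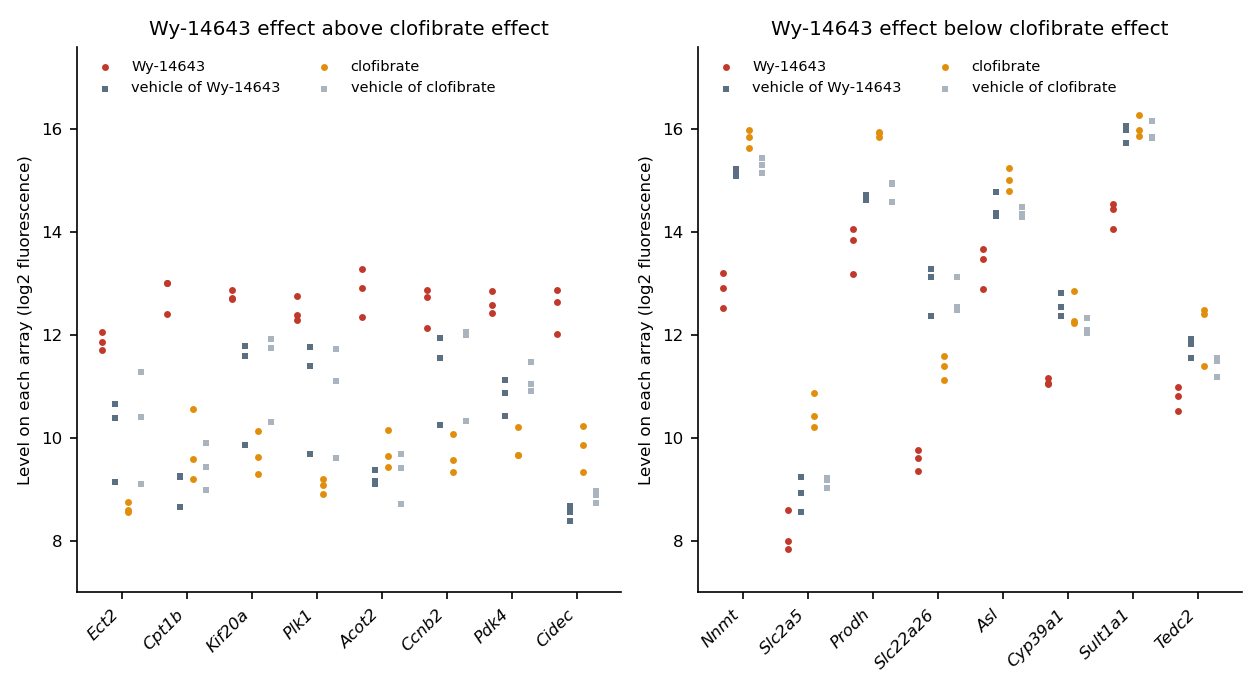
Log2 fluorescence in single livers at 4 days (vertical axis) for the 8 genes with the highest and the 8 with the lowest difference between the effects of Wy-14643 and clofibrate (horizontal axis), with each compound's livers left of its own vehicle livers and 1 point per liver. Cpt1b stands between 12.40 and 13.02 with Wy-14643 and lower in every clofibrate and vehicle liver.

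Genes listed in a single group have no difference to test. Probes were listed on all 3 arrays of a group or on none of them, except for 30 probes in Wy-14643 livers and 23 in vehicle livers. The rule behind the listing was not stated, so a gene missing from a group is not shown to be absent there, and these genes are given as a description. On all 3 Wy-14643 arrays and no vehicle array, 498 genes were listed (median log2 level 6.88), and on all 3 vehicle arrays alone 447 (6.87). The brightest of the first kind was Aqp3, a glycerol and water channel, at log2 signals of 12.08, 11.00 and 12.76, and it was also listed only with Wy-14643 at 1 and 14 days. Ppp1r3g, a regulator of glycogen synthesis, stood at 11.11, 11.47 and 12.12, and the peroxisomal thioesterase Acot5 at 10.57, 9.91 and 10.34. The proton channel Otop1, the keratin Krt20, the muscle form of fructose bisphosphatase Fbp2, Nat8f5, Sdcbp2, Gprc5b and 4933404O12Rik followed. Listed only in vehicle livers were the receptor Clec2h at 9.27, 10.39 and 8.38, the steroid dehydrogenase Hsd3b5 at 8.02, 10.05 and 9.44 and Cux2, a transcription factor of female-biased expression in mouse liver, at 8.62, 9.03 and 8.18. Zc3h3, Rasa4, Olfr1394, Tgif1, Cetn1, Egfbp2 and Ppp1r16b came next. Cux2, Zc3h3, Rasa4, Tgif1, Cetn1 and Ppp1r16b were listed in treated livers at both other times. Clec2h and Hsd3b5 were listed on the 3 treated arrays and no vehicle array at 1 day, the reverse of 4 days, and on the 3 vehicle arrays alone at 14 days.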

How the data were processed

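Per the labels, liver RNA of each mouse was labelled with Cy3 and hybridised to its own array. The authors deposited log2 values in 1 table of 108 arrays; its background correction, normalization and rule for leaving out values were not stated, and values were left out almost always for whole groups of 3 arrays. Its 41096 non-control probes include 12898 with no value. Each array was shifted to an equal 75th percentile over the 12210 probes listed on all 108 arrays. Of the probes, 32609 had 1 gene symbol, 44 several and 8443 none, and the brightest probe stood for a gene. Probes at the scanner limit (within 0.01 log2 of the array's highest value) were kept. A gene was tested where listed on every array of the groups compared, unless all of these arrays were at the scanner limit for it. The limma fit (lmFit, eBayes with a variance trend, limma 3.58.1, R 4.3.3) used the 54 arrays of the Wy-14643 arm with 18 group means, or all 108 arrays for clofibrate, with Benjamini-Hochberg adjustment at 0.05. It was also run on simulated data with independent noise on each array, which lack the shared deviations of same-numbered arrays described below. Figures used matplotlib 3.10.9.

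Same-numbered arrays deviated together (r of deviations from group means 0.436, 0.371 and 0.64, other pairs -0.44 to 0.0793), so the replicate number was tried as a block. Other scalings, probe choices, variance settings, reference groups and leaving out each array were also tried. Named genes come from the lists, and from the 15 highest and 15 lowest differences without overlap, the 8 highest and lowest of each comparison of effects, and the 10 brightest listed in 1 group. The members and lists were chosen with earlier results of these data known. The number of arrays limits the precision. No column was left unused.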

Additional observations from a re-analysis of the deposited data

Results flagged for a closer look

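The effect of Wy-14643 at 4 days differed from its effect at 1 day for 54 genes, from its effect at 14 days for 45 genes and from the effect of clofibrate at 4 days for 117 genes, by limma's test of the difference itself. The 8 largest differences of each sign are given here on the log2 scale.

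Against 1 day the effect was higher at 4 days for Fabp3 (5.02), Mt2 (4.23), Mt1 (4.11), Pla2g7 (2.78), Smpd3 (2.52), Slc2a5 (1.86), Elapor1 (1.81) and Niban2 (1.61). It was lower for Cyp4a12b (-3.35), Cyp4a31 (-3.19), Acot1 (-3.16), Ehhadh (-2.41), Retsat (-2.29), Vnn1 (-1.90), Lamb3 (-1.79) and Hsph1 (-1.67). Mt1 and Mt2 stood out because the difference lay at 1 day: Mt1 read 11.61, 12.12 and 11.19 in Wy-14643 livers of that day and 15.21, 14.75 and 16.57 in vehicle livers, and 13.77, 13.63 and 12.12 in Wy-14643 livers at 4 days and 12.74, 13.09 and 12.96 in vehicle livers.

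Against 14 days only 7 genes had a higher effect at 4 days, Sult2a6 (3.93), Sult2a3 (3.16), Lrtm1 (2.21), C9 (1.66), Hsd11b1 (1.54), Mup3 (1.44) and Rdh16f2 (1.23). Lower effects at 4 days were those of Fabp3 (-2.69), Acss1 (-2.36), Lpl (-2.36), Scd2 (-2.29), Cyp4a12b (-2.20), Cd24a (-1.97), Nupr1 (-1.87) and Mogat1 (-1.74). Sult2a6 read 11.75, 11.05 and 10.04 in Wy-14643 livers of 14 days, against 15.99, 15.79 and 14.67 in vehicle livers of that day.

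Against clofibrate the Wy-14643 effect was higher for Ect2 (3.43), Cpt1b (3.41), Kif20a (3.33), Plk1 (3.27), Acot2 (3.17), Ccnb2 (3.14), Pdk4 (3.10) and Cidec (3.02). It was lower for Nnmt (-2.82), Slc2a5 (-2.12), Prodh (-2.07), Slc22a26 (-2.01), Asl (-1.78), Cyp39a1 (-1.77), Sult1a1 (-1.68) and Tedc2 (-1.68). Arrays at the scanner limit leave the differences of Acot1, Ehhadh, Retsat, Hsd11b1, Mup3 and Sult1a1 without a bound.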

How the results depend on the processing

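The replicate block gave 1134 higher and 1691 lower at 4 days, 422 genes for the comparison with 1 day, 204 for that with 14 days and 619 for that with clofibrate, and it took no call from the genes named as called at 4 days. It added Retsat, Kif20a, Sult2a3, Sult2a6, Scd2, Acss1, Cd24a, Slc2a5 and Smpd3, which the text names without a call at 4 days. The mean of the 3 vehicle groups as reference gave 1044 higher and 1503 lower, and the vehicle livers of 14 days, chosen after seeing the data, gave 944 and 863. The comparison with 1 day held 3678 genes on the values as deposited and 35 with the brightest probe that never saturates. That with 14 days held 28 in the upper 0.75 of genes by level. That with clofibrate held 68 without vehicle replicate 1 of the clofibrate arm at 4 days, which is nearly identical to an array of 14 days. Leaving out 1 array at a time gave 289 to 411 higher and 215 to 504 lower, and 23 to 165, 33 to 46 and 53 to 146 genes for the comparisons with 1 day, 14 days and clofibrate. The cause of these shifts was not tested. Signs turned for Fabp7 (0.044 against the vehicle livers of 14 days), for Lpin2 (-0.18 with the brightest probe that never saturates) and for Plin2, which was not called (from -0.062 without vehicle replicate 2 to 0.141 without vehicle replicate 1). Of 132 named genes called, 82 kept their call whichever array of the 6 was left out and 24 lost it in at least 4 of the 6. The other scalings took the call from 4 to 9 of the 132, among Acsm1, C1qb, C2, Ciita, Crp, Cyp4f18, H2-Ab1, Itgb3, Sardh and Slc10a1. Saturated probes bound the brightest genes, and 3 arrays per group limit the precision.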

Other observations

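The vehicle livers of 4 days differed from those of 14 days in genes of cell division. Chosen after their values were seen, Aurka was higher at 4 days by 2.47 (limma adjusted p = 0.0169), Plk1 by 2.47, Birc5 by 2.43 and Mki67 by 2.15. Aurka, a mitotic kinase, read 12.13, 11.71 and 10.71 in vehicle livers of day 4, against 8.96, 8.14 and 10.03 in those of day 14. The steroid dehydrogenase Akr1c18 was higher by 3.45 and read 12.62, 11.19 and 12.54 in vehicle livers at 4 days, against 9.25, 7.66 and 9.09 at 14 days. Slc10a2, the bile acid carrier of ileum and bile ducts, was lower at 4 days, with a difference of -1.90, as was Hspb1 with -1.52.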
